A study of Homo sapiens with 12 samples.

Results

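The ETS factors are transcription factors that share the ETS domain, a winged helix-turn-helix fold that binds DNA at a GGAA core. SPIB and the 9 other ETS genes described here, SPI1, ETS1, ETV6, ELF1, ELF2, ERG, FLI1, GABPA and ELK4, were taken by symbol from the single-cell gene tables, as 10 of 57905 genes. Nalm-6 is a human cell line from a precursor B-ALL (acute lymphoblastic leukemia of B cell precursors). The single-cell RNA-seq holds 1 library labelled induced RUNX1 expression, from cells given 500 ng/ml doxycycline to switch on a Tet-On RUNX1 construct, and 1 control library, both labelled 72 h. The genotype label of the control is empty vector, whereas its title names DMSO and doxycycline is not among its labels, so vector, inducer, solvent and culture cannot be told apart from the RUNX1 label, and the control cells may lack the vector or come from another time. The series also lists 10 ChIP-seq samples, not analysed here.

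The RUNX1-labelled library gave 4800 passing cells with 75350615 human UMIs (unique molecular identifiers, each a molecule counted once), and the control library gave 5598 passing cells with 75754137. The median passing cell held 14805 UMIs with 13.0% of them mitochondrial in the RUNX1-labelled library, against 12505.5 UMIs with 9.40% in the control library. The libraries shared 12 barcode sequences. RUNX1 itself went against the label, with 2288 UMIs in the RUNX1-labelled library, against 5282 in the control library, or 30.4 and 69.7 CPM (UMIs of a gene per 1000000 human UMIs of the cells summed), a log2 ratio of -1.20 (-1.27 to -1.13). The assay reads the 3′ ends of transcripts, and the sources do not say whether the construct holds the end read for RUNX1. Higher and lower below thus refer to the label and not to a measured level of RUNX1. Each group had 1 library, so no test between conditions was possible, no ratio has a replicate check, and every interval in parentheses is a 95% interval of counting error only. Of the markers of cell types, 11 of 11 annotated B precursor markers, 1 of 5 plasmacytoid dendritic cell markers, and 0 of 10 myeloid, 0 of 6 T cell and 0 of 6 erythroid and megakaryocyte markers reached 10 CPM in each library. The plasmacytoid dendritic markers summed to 147 CPM in the RUNX1-labelled library and 11.7 CPM in the control library, most of it PTCRA in both. The B precursor markers did not move together: VPREB1 and CD79A were 2-fold or more higher in the RUNX1-labelled library (log2 1.18 and 1.02) and DNTT was lower by as much (log2 -1.60), and in non-cycling cells RAG1 was too (log2 -2.13).

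In B cells, SPIB encodes Spi-B, the closest relative of PU.1, which is the product of SPI1. Both recognise purine-rich GAGGAAGT-type elements and act with IRF4 and IRF8 on immunoglobulin and B cell receptor genes. ERG and FLI1 form a second closely related pair, known from blood stem and endothelial cells, where they share regulatory elements with RUNX1, LMO2 and LYL1. ETV6 is a repressor and a recurrent fusion partner in childhood B-cell leukemia. GABPA is the DNA-binding subunit of GABP and prefers CCGGAAGT elements in promoters of housekeeping genes, and ELK4 is a ternary complex factor that binds DNA together with SRF.

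The promoters show how differently these genes are placed with respect to ETS elements. RefSeq windows of the 250 bases before the transcription start (GRCh38.p14) were matched by symbol for 7 of the 10 genes. Those of SPIB (chr19:50418688-50418937, plus strand), the gene that differed most, and of GABPA (chr21:25734722-25734971, plus strand) and ELK4 (chr1:205632012-205632261, minus strand), which hold a CCGGAAGT element, read 5′ to 3′ as follows, with matches to CCGGAAGT, GAGGAAGT or the RUNX element TGNGGT on either strand in capitals.
SPIB: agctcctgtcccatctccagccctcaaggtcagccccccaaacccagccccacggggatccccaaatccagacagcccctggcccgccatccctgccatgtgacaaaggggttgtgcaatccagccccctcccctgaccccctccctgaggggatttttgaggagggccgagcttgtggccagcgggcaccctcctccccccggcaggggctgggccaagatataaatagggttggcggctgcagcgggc
GABPA: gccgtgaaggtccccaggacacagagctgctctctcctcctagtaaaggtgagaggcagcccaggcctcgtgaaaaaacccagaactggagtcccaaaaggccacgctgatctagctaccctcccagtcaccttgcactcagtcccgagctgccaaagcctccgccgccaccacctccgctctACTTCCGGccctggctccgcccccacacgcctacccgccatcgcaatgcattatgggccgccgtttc
ELK4: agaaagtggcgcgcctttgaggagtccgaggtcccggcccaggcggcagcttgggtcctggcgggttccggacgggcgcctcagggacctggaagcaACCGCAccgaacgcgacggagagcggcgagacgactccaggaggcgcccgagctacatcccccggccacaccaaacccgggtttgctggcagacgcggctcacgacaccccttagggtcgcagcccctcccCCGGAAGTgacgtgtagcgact
The SPIB window held 0 matches to CCGGAAGT, GAGGAAGT, TGNGGT or the bare core GGAA, which both longer ETS elements contain. This was not particular to SPIB. An ELF1 window (chr13:40982283-40982532) and an ELF2 window (chr4:139177219-139177468) also held 0 matches to GGAA, though other windows of ELF1 and ELF2 held it. Of the 13 windows of the 7 genes, only those printed for GABPA and ELK4 held CCGGAAGT, and 0 held GAGGAAGT. The core was present in 92.7% of all 35116 promoter windows of the same length, TGNGGT in 37.7%, CCGGAAGT in 3.42% and GAGGAAGT in 2.17%. The GABPA window held CCGGAAGT on the opposite strand at offset -67 from the start, and the ELK4 window held it at offset -22, with a TGNGGT match on the opposite strand at offset -153. These letter matches are a description of the windows and not a measure of binding.

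SPIB was nearly absent from the control library and present in most cells of the RUNX1-labelled library. SPIB (ENSG00000269404; GRCh37 chromosome 19, 50922195 to 50934571, plus strand) had 11141 UMIs in the RUNX1-labelled library, against 203 in the control library, or 148 CPM (145 to 151) and 2.68 CPM (2.32 to 3.07). The log2 ratio was 5.79 (5.59 to 5.99), a 55.2-fold higher level, and ranked 23 among the 7980 genes that reached 10 CPM in at least 1 library. With every cell drawn down to 8000 UMIs (thinned), 53.6% of 4188 cells of the RUNX1-labelled library carried a SPIB UMI (52.1 to 55.1, exact Clopper-Pearson), against 1.74% of 5185 control cells (1.40 to 2.13). On full counts these were 64.3% in the RUNX1-labelled library and 2.86% in the control library. Barcodes of a cell type that should lack SPIB were not among the data, so a background share from free RNA was not measured.

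**Figure D1:**
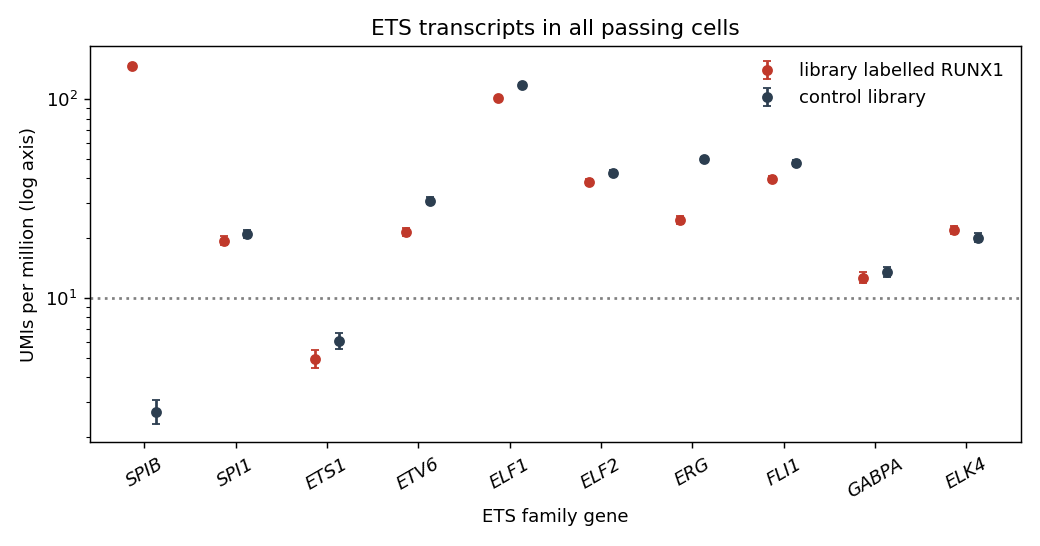
Level of each ETS gene in CPM (vertical axis, logarithmic) in all passing cells, with the RUNX1-labelled library in red left of the control library in dark blue, exact Poisson 95% intervals, and a dotted line at 10 CPM. SPIB stands at 148 CPM in the RUNX1-labelled library and 2.68 CPM in the control library, ERG at 24.7 and 49.9 CPM, and both ETS1 points lie under the dotted line.

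The other 9 genes differed far less. Of the 10 ETS genes, 9 reached 10 CPM in at least 1 library, and of these only SPIB was at least 2-fold higher and only ERG at least 2-fold lower in the RUNX1-labelled library. Over all 7980 genes, 413 (5.18%) lay 2-fold or more above and 327 (4.1%) 2-fold or more below the control library, so that the upper group made up 55.8% of these. This split moved with the scaling, to 39.3% under TMM factors and 83.8% under a total without mitochondrial and ribosomal protein genes. The median log2 ratio was -0.15 over the 9 ETS genes that reached 10 CPM and -0.13 over all 7980 genes, and the median over all genes moved to -0.26 and 0.14 under those scalings.

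ERG had 1858 UMIs in the RUNX1-labelled library, against 3781 in the control library, or 24.7 CPM (23.5 to 25.8) and 49.9 CPM (48.3 to 51.5). The log2 ratio of ERG (ENSG00000157554; GRCh37 chromosome 21, 39751949 to 40033704, minus strand) was -1.02 (-1.10 to -0.94), just past 2-fold. It was no longer past 2-fold at -0.53 when only cells under 10% mitochondrial UMIs were summed (599 cells of the RUNX1-labelled library and 3651 control cells) and at -0.80 when the total left out mitochondrial and ribosomal protein genes. ERG UMIs were seen in 15.4% of thinned cells of the RUNX1-labelled library (14.3 to 16.5), against 31.5% of thinned control cells (30.3 to 32.8). FLI1, the close relative of ERG, had 2984 UMIs, or 39.6 CPM, in the RUNX1-labelled library, against 3615, or 47.7 CPM, in the control library, a log2 ratio of -0.27 (-0.34 to -0.20). The intervals of the ERG and FLI1 ratios did not overlap.

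ETV6 had 1619 UMIs, or 21.5 CPM, in the RUNX1-labelled library, against 2346, or 31.0 CPM, in the control library, and its log2 ratio of -0.53 (-0.62 to -0.44) was the next lowest after ERG. The paper lists Nalm-6 with an ETV6-PDGFRB fusion, though a figure legend there names a TCF3-PDGFRB subtype. An assay of 3′ ends counts a transcript that ends in PDGFRB under that gene. PDGFRB, a receptor tyrosine kinase, had 75 UMIs in the RUNX1-labelled library and 67 in the control library, or 0.995 and 0.884 CPM.

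SPI1 did not share the difference of SPIB. PU.1 transcripts had 1466 UMIs, or 19.5 CPM (18.5 to 20.5), in the RUNX1-labelled library, against 1596, or 21.1 CPM (20.05 to 22.1), in the control library, a log2 ratio of -0.11 (-0.22 to -0.01). ETS1, which restrains plasma cell formation in mice, stayed under 10 CPM with 374 UMIs, or 4.96 CPM, in the RUNX1-labelled library and 462 UMIs, or 6.10 CPM, in the control library. ELF1, a broadly expressed activator, had 101 CPM in the RUNX1-labelled library and 118 CPM in the control library, a log2 ratio of -0.23 (-0.27 to -0.18). Its relative ELF2 had 38.3 CPM in the RUNX1-labelled library and 42.5 CPM in the control library, a log2 ratio of -0.15 (-0.22 to -0.08). GABPA had 12.7 CPM in the RUNX1-labelled library and 13.6 CPM in the control library, and its log2 ratio of -0.10 had an interval that held 0 (-0.23 to 0.03). ELK4 was the one gene beside SPIB with a ratio above 0, at 22.1 CPM in the RUNX1-labelled library and 20.2 CPM in the control library, a log2 ratio of 0.13 (0.03 to 0.23). The signs of the ratios of SPI1, ETS1, ELF2 and GABPA depended on the cell filter or the scaling: ELF2 and GABPA lay above 0 both with cells under 10% mitochondrial UMIs and with a total without mitochondrial and ribosomal protein genes, ETS1 lay above 0 with the first and SPI1 with the second.

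Cycling state separated the cells of the RUNX1-labelled library. From S and G2/M transcripts of thinned cells, 54.2% of cells of the RUNX1-labelled library were called G1, here named non-cycling (2271 of 4188), against 6.21% of control cells (322 of 5185). With non-cycling cells set instead as the lowest 25% of all cells by share of cell cycle UMIs, without thinning, these were 51.3% of cells of the RUNX1-labelled library (2463 cells) and 2.45% of control cells (137 cells), and the SPIB log2 ratio in non-cycling cells was 7.19. The calls read transcripts and do not measure DNA content, and the score lay within 0.02 of its cut in 74 cells of the RUNX1-labelled library and 70 control cells. SPIB levels, from high to low, were 206 CPM in non-cycling cells of the RUNX1-labelled library (201 to 211), 95.4 CPM in its cycling cells (92.4 to 98.5), 2.72 CPM in cycling control cells (2.34 to 3.13) and 1.68 CPM in non-cycling control cells (6 UMIs; 0.615 to 3.65). The last pair could not be told apart by counting error. In S cells, SPIB stood at 81.5 CPM in the RUNX1-labelled library and 2.45 CPM in the control library, and in G2/M cells at 112 CPM in the RUNX1-labelled library and 3.07 CPM in the control library.

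Within each state the difference of SPIB between the libraries remained. In cycling cells its log2 ratio was 5.14 (4.92 to 5.35), where 1.64% of 7700 genes were 2-fold or more higher and 1.49% lower by as much. In non-cycling cells the SPIB ratio was 6.94, with a wide interval (5.82 to 8.39) that the 6 control UMIs set, where 8.16% of 7963 genes were 2-fold or more higher and 6.17% lower by as much. The SPIB ratio was 5.05 (4.76 to 5.36) in S cells, where 1.62% of genes were 2-fold or more higher and 1.43% lower by as much, and 5.18 (4.88 to 5.50) in G2/M cells, where these shares were 1.91% and 1.77%. ERG had a log2 ratio of -0.67 (-0.76 to -0.57) in cycling cells and -1.53 (-1.77 to -1.27) in non-cycling cells. ETV6 differed by a log2 of -0.71 in cycling and -0.67 in non-cycling cells, so its ratio did not move with the state beyond counting error. The SPI1 ratio was 0.08 (-0.05 to 0.20) in cycling cells and -0.69 (-1.002 to -0.37) in non-cycling cells. Of the 10 ETS genes, SPIB was the one past 2-fold in cycling cells, in S cells and in G2/M cells, and SPIB and ERG were the ones past it in non-cycling cells.

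**Figure D2:**
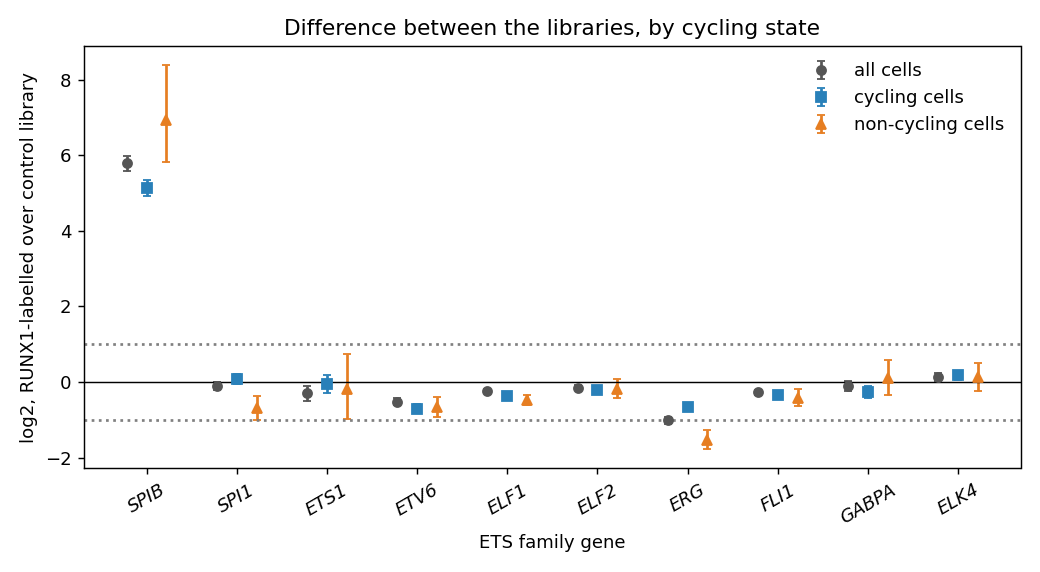
Log2 ratio of the RUNX1-labelled library over the control library (vertical axis) for each ETS gene in all cells (grey circles), cycling cells (blue squares) and non-cycling cells (orange triangles), with exact conditional 95% intervals and dotted lines at 2-fold. SPIB lies at 5.79, 5.14 and 6.94, whereas ERG passes the lower dotted line in all cells at -1.02 and in non-cycling cells at -1.53 but not in cycling cells at -0.67.

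Compared within the RUNX1-labelled library, SPIB CPM was higher and ERG CPM lower in non-cycling than in cycling cells. The log2 ratio of non-cycling over cycling cells was 1.11 (1.05 to 1.17) for SPIB, where 4.73% of 7985 genes were 2-fold or more higher and 6.3% lower by as much. In the control library, 0.626% of 7662 genes were 2-fold or more higher in non-cycling cells and 5.19% lower by as much. Without scaling to total UMIs, SPIB in the RUNX1-labelled library had 285 UMIs per 100 non-cycling cells, against 199 per 100 cycling cells. Among these cycling cells, those called G2/M had 252 and those called S had 160, so the SPIB difference between states was smaller per cell than in CPM. ERG stood at 17.3 CPM in non-cycling and 31.3 CPM in cycling cells of the RUNX1-labelled library, a log2 ratio of -0.86 (-1.005 to -0.71), and at 49.7 and 49.6 CPM in the same states of the control library, a log2 ratio of 0.00 (-0.22 to 0.22). ELF1 was higher in non-cycling than in cycling cells of both libraries, with log2 ratios of 0.30 in the RUNX1-labelled library and 0.41 in the control library, as was ETV6, with 0.33 and 0.29. ELF2 and FLI1 had intervals that held 0 in both libraries.

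SPIB and ERG were also followed across the share of cell cycle transcripts. The cells of the RUNX1-labelled library were ordered by the share of their UMIs in S and G2/M genes and divided into 5 groups of 960 cells. SPIB had 231, 203, 184, 94.8 and 97.2 CPM from the group with the lowest share to that with the highest. The intervals of groups 1, 2 and 3 did not overlap each other, and the step between groups 3 and 4 was the largest. Without scaling to total UMIs, the groups held 2697, 2429, 2196, 1751 and 2068 SPIB UMIs in the same order. ERG had 16.5, 15.8, 19.5, 28.4 and 33.8 CPM in the same groups. The groups are equal in cells and not in the range of the share they span, so the size of a step does not give the shape of the relation. In the control library, divided in the same way by its own cells, SPIB lay between 1.92 and 3.32 CPM and ERG between 47.3 and 52.1 CPM.

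**Figure D3:**
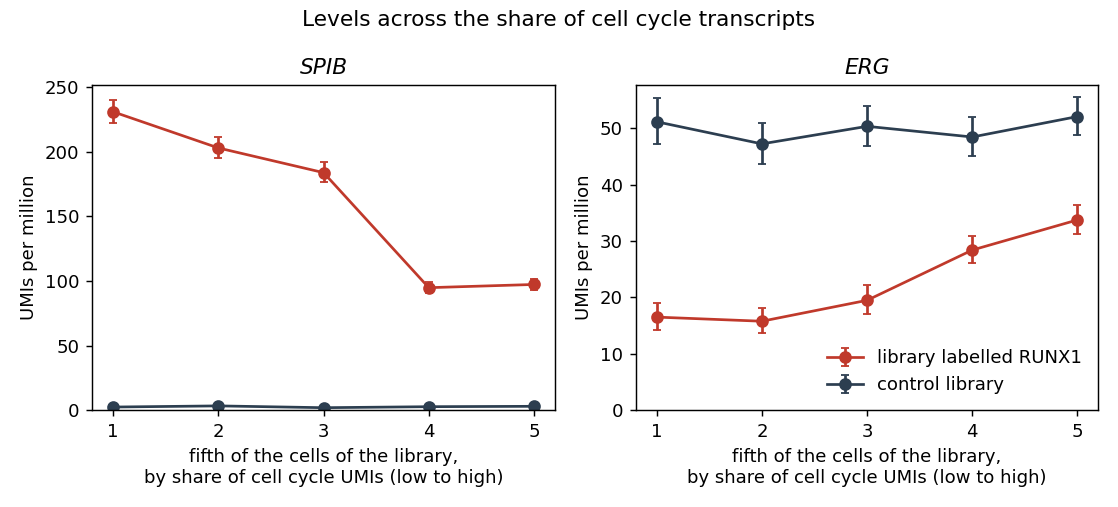
Level in CPM (vertical axes from 0) of SPIB on the left and ERG on the right, in 5 equal groups of the cells of each library ordered by their share of cell cycle UMIs (horizontal axes), with exact Poisson 95% intervals. In the RUNX1-labelled library (red) SPIB stands at 231 CPM in group 1 and 97.2 CPM in group 5 and ERG at 16.5 and 33.8 CPM, whereas ERG in the control library (dark blue) stays between 47.3 and 52.1 CPM.

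SPIB UMIs were spread unevenly among the cells of the RUNX1-labelled library. In thinned cells the variance of the SPIB count was 2.23 times its mean, and 1.97 and 2.28 times within non-cycling and cycling cells, against 1.01 for ELF1 in the same library. At the same mean, even counting would have put a SPIB UMI in 73.0% of cells, against the 53.6% observed. At least 3 SPIB UMIs were held by 832 thinned cells of the RUNX1-labelled library (19.9%) and by 1 thinned control cell. The highest count in any unthinned cell was 24 in the RUNX1-labelled library and 4 in the control library. In non-cycling cells of the RUNX1-labelled library, 68.0% held a SPIB UMI, and in its cycling cells 36.6%.

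**Figure D4:**
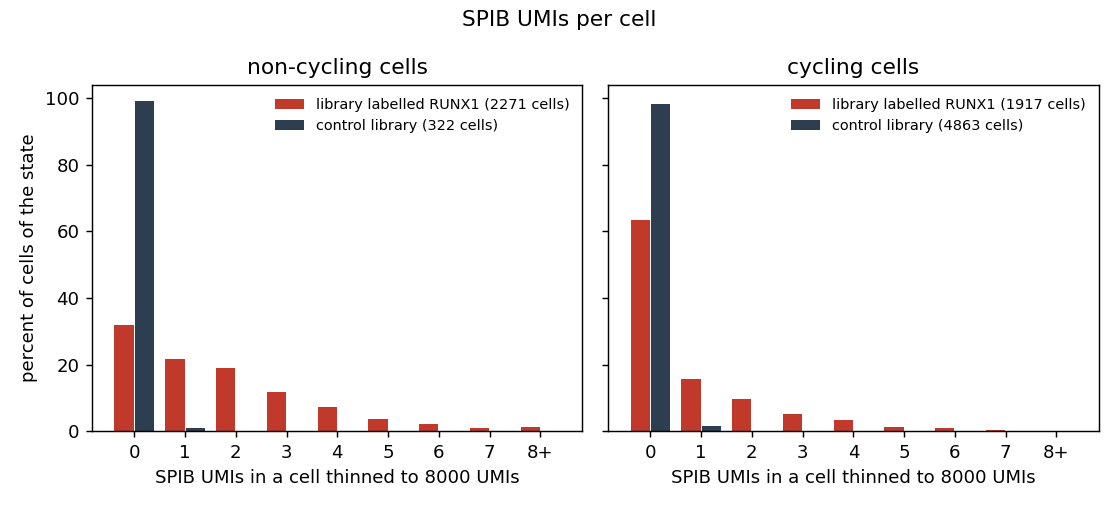
Percentage of cells (vertical axes) by the number of SPIB UMIs in a cell thinned to 8000 UMIs (horizontal axes, the last bar for 8 or more), in non-cycling cells on the left and cycling cells on the right, with the RUNX1-labelled library in red left of the control library in dark blue. A SPIB UMI was seen in 68.0% of non-cycling and 36.6% of cycling cells of the RUNX1-labelled library, whereas nearly all control cells stand at 0.

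Mitochondrial share moved with the CPM of SPIB in both states of the RUNX1-labelled library, and depth among its non-cycling cells. In 3 equal groups of non-cycling cells from low to high mitochondrial share, SPIB had 269, 204 and 155 CPM, and in 3 equal groups from low to high UMIs per cell it had 261, 229 and 163 CPM. CPM divides by the UMIs that formed the latter groups, which held 1878, 2243 and 2349 SPIB UMIs, so the unscaled count rose with depth. In cycling cells of that library SPIB had 109, 96.7 and 80.4 CPM from low to high mitochondrial share, and 113, 79.4 and 97.9 CPM from low to high UMIs per cell, where the lowest value stood in the middle group. Each of these lay far above the control library, where no such group of either state exceeded 3.21 CPM. The part of depth and mitochondrial share in the spread among cells was not tested. Among non-cycling cells of the RUNX1-labelled library, SPIB also differed between cells that held other transcripts absent or rare in the control library: it stood at 102 CPM in 253 cells with C1orf141 or LINC00967, 278 CPM in 938 further cells with CCL3 or CCL4, 265 CPM in 439 further cells with FCER1G, and 126 CPM in the 641 cells with none of these.

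ERG was lower in the cells that held SPIB. In thinned cycling cells of the RUNX1-labelled library, ERG stood at 15.0 CPM in the 701 cells with a SPIB UMI and 41.4 CPM in the 1216 cells without, a log2 ratio of -1.47 (-1.82 to -1.13). With 0, 1, 2 and at least 3 SPIB UMIs in the cell, ERG had 41.4, 20.6, 11.4 and 10.1 CPM. ERG in cycling cells without a SPIB UMI thus came close to the 50.5 CPM of thinned cycling control cells (48.3 to 52.8), though its interval (37.5 to 45.7) did not reach it. In the same 2 groups FLI1 had 39.8 and 47.5 CPM, whereas RUNX1 had 33.7 and 70.2 CPM. On full counts 980 of the 1917 cycling cells held a SPIB UMI, so some cells counted as without SPIB did hold it. In non-cycling cells ERG had 20.7, 12.1, 12.2 and 15.7 CPM in the same order of SPIB UMIs, and the log2 ratio of cells with over cells without SPIB was -0.60 (-0.95 to -0.25).

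The log2 ratio of ERG in cycling cells with SPIB over those without was -1.11 in S cells and -1.92 in G2/M cells. Over these phases, 3 groups by UMIs per cell and 3 groups by mitochondrial share it lay between -2.22 and -1.11, each with an interval below 0. These 8 values divide the same cells of 1 library in 3 ways and are not separate checks. In non-cycling cells, ERG was lower with SPIB in 5 of 6 groups by UMIs per cell or mitochondrial share, with an interval below 0 in 3. RUNX1 had 23.2 CPM in cycling cells with SPIB and 33.7 CPM in those without, a log2 ratio of -0.54 (-0.84 to -0.24). FLI1 had 35.0 CPM in cycling cells with SPIB and 39.8 CPM in those without, with an interval that held 0. ELF2 was lower with SPIB in cycling cells (log2 -0.38) and ELF1 higher (log2 0.27), and both intervals held 0 in non-cycling cells. ETS1 had a log2 ratio of 0.85 in cycling cells and -0.86 in non-cycling cells, from 29 to 52 UMIs per group. Cells of 1 library are not replicates, so these ratios describe this library.

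**Figure D5:**
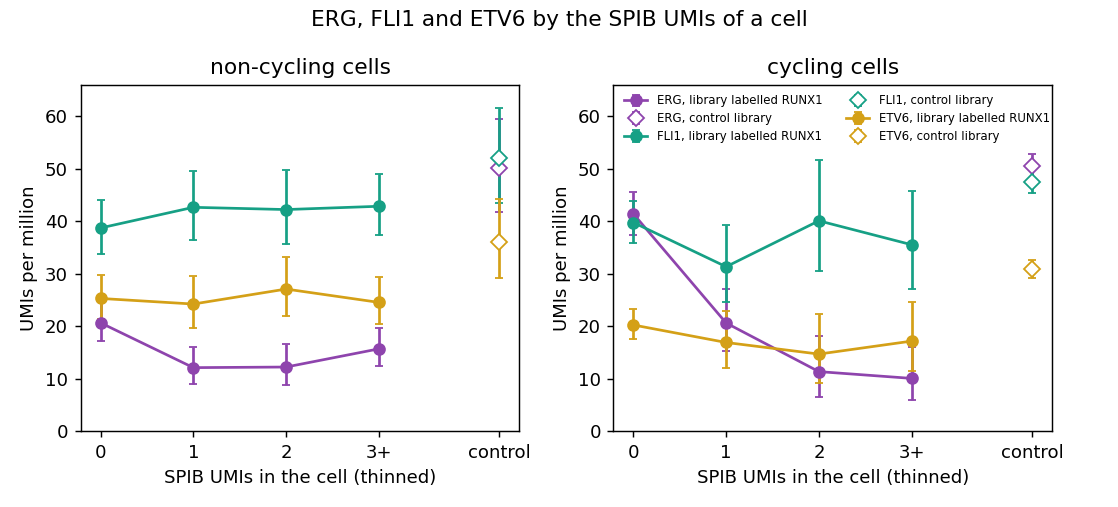
Levels in CPM (vertical axes from 0) of ERG (purple), FLI1 (green) and ETV6 (yellow) in thinned cells of the RUNX1-labelled library with 0, 1, 2 or at least 3 SPIB UMIs (filled circles), and in thinned control cells of the same state (open diamonds), with exact Poisson 95% intervals. In cycling cells on the right ERG reaches 41.4 CPM without SPIB and 10.1 CPM with at least 3 SPIB UMIs, whereas in non-cycling cells on the left it lies between 12.1 and 20.7 CPM.

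Genes whose counts followed SPIB from cell to cell were chosen by Pearson's r of log counts in thinned cells of the RUNX1-labelled library, over 7605 genes. In 1917 cycling cells the highest were C12orf75 (r = 0.58), CLEC11A (0.48), HVCN1 (0.43), CORO1A (0.40), PTPN6 (0.38) and TNFRSF13B (0.38), followed by CXXC5, ZCCHC7, AFF3 and PLP2. HVCN1 is a voltage-gated proton channel of B cells, CORO1A an actin-binding protein of leukocytes, PTPN6 the phosphatase SHP-1 and TNFRSF13B the receptor TACI. In 2271 non-cycling cells the highest were C12orf75 (0.44), VPREB1 (0.40), POU2F2 (0.38) and HVCN1 (0.38), followed by RPLP1, IGLC3, AFF3, IL4I1, PTCRA and PTPN6. VPREB1 encodes a surrogate light chain of the pre-B cell receptor and POU2F2 the octamer factor Oct-2. C12orf75, HVCN1, AFF3 and PTPN6 were thus among the highest 10 in both states. ERG had r = -0.19 in cycling cells, rank 7568 of 7605, and -0.05 in non-cycling cells, rank 6741. The other ETS genes measured lay between -0.06 and 0.06 over both states, a range that also holds the non-cycling value of ERG. The cells share 1 library, and these values are a description. C12orf75, the highest in both states, had 253, 775, 942 and 1342 CPM in cycling cells with 0, 1, 2 and at least 3 SPIB UMIs, and 128 CPM in thinned cycling control cells.

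The neighbours of SPIB did not share its difference, with 1 exception. MYBPC2, a skeletal muscle myosin-binding protein gene that begins just downstream of SPIB on the same strand (chromosome 19, 50936149 to 50969578), had 494 UMIs in the RUNX1-labelled library and 2 in the control library, a log2 ratio with an interval of 6.10 to 11.01. In cycling cells of the RUNX1-labelled library MYBPC2 had 0.514 CPM without SPIB UMIs and 13.6 CPM with at least 3. Whether its UMIs come from transcripts that begin at SPIB was not tested. POLD1, the catalytic subunit of DNA polymerase delta, had 21.6 CPM in the RUNX1-labelled library and 24.7 CPM in the control library. NR1H2, the oxysterol receptor LXR-beta, had 31.7 CPM in the RUNX1-labelled library and 22.8 CPM in the control library. EMC10, of the ER membrane complex, had 25.8 CPM in the RUNX1-labelled library and 43.7 CPM in the control library.

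Some annotated genes overlapped an ETS gene. ENSG00000142539, annotated as protein-coding with no symbol, overlaps SPIB on the same strand and was at 0 UMIs in both libraries. The others named here lie on the opposite strand. SENCR, a long noncoding RNA antisense to FLI1, had 1330 UMIs in the RUNX1-labelled library, against 222 in the control library, or 17.7 and 2.93 CPM, a log2 ratio of 2.59 (2.38 to 2.80), beside the ratio of -0.27 for FLI1. ATP5PF, a subunit of ATP synthase that overlaps GABPA, had 395 CPM in the RUNX1-labelled library and 528 CPM in the control library. The strand setting of the counting is not given in the sources used here, so reads of overlapping genes may not be fully told apart.

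Of 18 further ETS genes, 5 reached 10 CPM and none of these differed 2-fold in all cells, beside 5.18% of all genes higher and 4.1% lower by as much. Their median log2 ratio was -0.50, beside -0.13 over all genes. Under 10 CPM, ETV7 had 64 UMIs in the RUNX1-labelled library and 11 in the control library (log2 2.55; 1.61 to 3.62). ELF3 had 69 and 18 UMIs (log2 1.95; 1.18 to 2.78). None under 10 CPM had an interval wholly past 2-fold lower. In non-cycling cells, 2 of the 5 that reached 10 CPM there, ETS2 and ELK3, were 2-fold or more lower and 0 higher, beside 6.17% of all genes lower and 8.16% higher by as much. ETS2, a relative of ETS1, had 42.4 CPM in the RUNX1-labelled library and 71.9 CPM in the control library (log2 -0.76), and in non-cycling cells 29.8 CPM in the RUNX1-labelled library and 77.9 CPM in the control library (log2 -1.38; -1.58 to -1.19). ELK3, a ternary complex factor, had 6.29 CPM in the RUNX1-labelled library and 10.5 CPM in the control library (log2 -0.73), so that it was not past 2-fold in all cells, yet its log2 ratio was -1.22 in non-cycling cells (8.54 CPM in the RUNX1-labelled library and 19.8 CPM in the control library) and -2.08 in cycling cells, where it was under 10 CPM in both libraries and not counted. ERF, a repressor, had a log2 ratio of -0.50, while ELK1 and ETV5 lay at 0.16 and -0.01. SPIC, the remaining gene of the PU.1 subfamily, was at 0 UMIs in both libraries, as were FEV, ETV3L and ELF5.

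Among 20 partners and cofactors of ETS proteins, 15 reached 10 CPM, of which 2 were 2-fold or more higher and 4 lower by as much, beside 5.18% and 4.1% of all genes, and their median log2 ratio was -0.69, beside -0.13 over all genes. JUN, of the AP-1 complex, had 114 CPM in the RUNX1-labelled library and 21.1 CPM in the control library (log2 2.43). MKL1, a cofactor of SRF, had 10.4 CPM in the RUNX1-labelled library and 3.64 CPM in the control library (log2 1.51). LYL1, a factor of blood progenitors, had 9.62 CPM in the RUNX1-labelled library and 48.9 CPM in the control library (log2 -2.34), and its partner LMO2 had 11.7 CPM in the RUNX1-labelled library and 36.8 CPM in the control library (log2 -1.65). The other 2 lower partners were POU2AF1, the B cell coactivator OBF-1, at 8.89 CPM in the RUNX1-labelled library and 21.7 CPM in the control library (log2 -1.29), and RUNX1 itself. The IRF partners of Spi-B and PU.1 differed little in all cells: IRF4 had 39.7 CPM in the RUNX1-labelled library and 34.9 CPM in the control library, and IRF8 had 1.26 CPM in the RUNX1-labelled library and 1.23 CPM in the control library. By state, the log2 ratio of IRF4 was 0.47 (0.38 to 0.56) in cycling cells and -0.31 (-0.57 to -0.04) in non-cycling cells. GABPB1, the partner subunit of GABPA, had 17.8 CPM in the RUNX1-labelled library and 28.8 CPM in the control library (log2 -0.69).

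Known targets of each subgroup were counted from lists, whose results describe these 2 libraries only. These lists, and those of further ETS genes and of partners above, were chosen with earlier results of these data known. Their counts and medians beside those of all genes are therefore a description and not a test of enrichment. The counts in all cells are read beside the 5.18% of all genes that were 2-fold or more higher, the 4.1% lower by as much and the median log2 ratio of -0.13 over all genes, which moved between -0.26 and 0.14 with the scaling. Of 20 targets of PU.1 and Spi-B in B cells, 12 reached 10 CPM, of which 3 were 2-fold or more higher and 1 lower by as much, with a median log2 ratio of -0.05 beside -0.13 over all genes. MS4A1, which encodes CD20, had 926 UMIs in the RUNX1-labelled library and 45 in the control library (log2 4.37). BLK, a kinase of the B cell receptor, had 61.7 CPM in the RUNX1-labelled library and 29.7 CPM in the control library (log2 1.05), and CD79A, a signalling chain of that receptor, had 293 CPM in the RUNX1-labelled library and 144 CPM in the control library (log2 1.02). CD22, an inhibitory receptor, had 9.46 CPM in the RUNX1-labelled library and 21.2 CPM in the control library (log2 -1.16). In cycling cells, 0 of the 11 that reached 10 CPM were past 2-fold, beside 1.64% of all genes higher and 1.49% lower, and CD79A had a log2 ratio of -0.05 (-0.09 to 0.00). In non-cycling cells, 13 reached 10 CPM, of which 3 were 2-fold or more higher (BLK, MS4A1 and FCGR2B) and 4 lower by as much, with a median log2 ratio of -0.27, beside 8.16% of all genes higher, 6.17% lower and an all-gene median of -0.06. The 4 lower genes there were IL7R, the receptor chain for interleukin 7 (log2 -2.08), CD22 (log2 -1.94), BLNK, an adaptor of B cell receptor signalling (log2 -1.03), and CIITA, the coactivator of MHC class II genes (log2 -1.01). Within cycling cells of the RUNX1-labelled library, CD79A had 205 CPM in cells with a SPIB UMI and 100.2 CPM in cells without (log2 1.03). In non-cycling cells its log2 ratio was 0.43 (0.36 to 0.50). Of this list, only CD79A and MS4A1 were compared by SPIB UMIs. MS4A1 had a log2 ratio of 1.99 in cycling cells, from 16 and 7 UMIs, and 0.61 in non-cycling cells. The share of all genes that differed between these cells was not computed. Under 10 CPM, the inhibitory Fc receptor gene FCGR2B had 468 UMIs in the RUNX1-labelled library and 3 in the control library, and CD40 had 201 UMIs in the RUNX1-labelled library and 11 in the control library.

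Of 16 myeloid targets of PU.1, 3 reached 10 CPM: FCER1G had 10420 UMIs in the RUNX1-labelled library and 7 in the control library, the chemokine gene CCL3 had 2848 UMIs in the RUNX1-labelled library and 0 in the control library, and the integrin gene ITGB2 had 467 UMIs in the RUNX1-labelled library and 944 in the control library. CSF3R, FCGR1A and ELANE were at 0 in both libraries. Of 5 markers of plasmacytoid dendritic cells, another cell type that uses Spi-B, only PTCRA reached 10 CPM, with 145 CPM in the RUNX1-labelled library and 10.1 CPM in the control library, and CLEC4C was at 0 in both. Of 17 targets of ERG and FLI1, 6 reached 10 CPM, and 4 of these were 2-fold or more lower and 2 higher by as much, beside 4.1% and 5.18% of all genes, with a median log2 ratio of -1.54 beside -0.13 over all genes. EGFL7, a secreted endothelial factor, had 5.51 CPM in the RUNX1-labelled library and 38.3 CPM in the control library (log2 -2.80), and ESAM, an adhesion molecule, had 10.1 CPM in the RUNX1-labelled library and 27.3 CPM in the control library (log2 -1.44). LYL1 and LMO2, already counted among the partners, were the other 2 lower genes of this list. ICAM2, an adhesion molecule of endothelium and leukocytes, had 79.4 CPM in the RUNX1-labelled library and 24.6 CPM in the control library (log2 1.69), and KDR, which encodes the VEGF receptor of endothelium, had 2526 UMIs in the RUNX1-labelled library and 0 in the control library. The list median is the same with KDR at any bound above that of ESAM.

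Of 15 targets of SRF and its ternary complex factors, 9 reached 10 CPM and 2 were at least 2-fold higher, with 0 lower, beside 5.18% and 4.1% of all genes, and a median log2 ratio of 0.56 beside -0.13 over all genes. FOS, an immediate early gene, had 31.9 CPM in the RUNX1-labelled library and 1.04 CPM in the control library (log2 4.93), and SPRY2, a feedback inhibitor of receptor signalling, had 23.0 CPM in the RUNX1-labelled library and 9.45 CPM in the control library (log2 1.28). SRF itself had 6.90 CPM in the RUNX1-labelled library and 11.4 CPM in the control library (log2 -0.73). Of 14 GABP targets, 12 reached 10 CPM, with a median log2 ratio of -0.39 beside -0.13 over all genes, and 0 were 2-fold or more higher and 1 lower, beside 5.18% and 4.1% of all genes. The lower gene was TIMM23, a subunit of the mitochondrial import channel, at 19.6 CPM in the RUNX1-labelled library and 42.1 CPM in the control library (log2 -1.10). TFAM, the mitochondrial transcription factor, had 40.9 CPM in the RUNX1-labelled library and 79.1 CPM in the control library (log2 -0.95), and COX4I1, of cytochrome c oxidase, had 856 CPM in the RUNX1-labelled library and 841 CPM in the control library.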

How the data were processed

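Single-cell RNA-seq of Nalm-6 cells (10x Genomics 3′ assay, lanes loaded with pooled human and mouse cells) gave 1 library per group. The authors counted UMIs with Cell Ranger 3.0.2 on hg19 and mm10, per the submitters' processing notes, and the deposited values are raw human UMI counts, with the human and mouse counts of each barcode. Cells with more than 2000 and fewer than 6000 genes and under 20% mitochondrial UMIs were kept, 4800 of 5491 barcodes of the RUNX1-labelled library and 5598 of 6073 control barcodes, with a median of 14805 and 12505.5 UMIs per cell. Doublets were not removed. UMIs were summed over cells and scaled to CPM. Intervals are exact Poisson (levels), Clopper-Pearson (shares) and conditional binomial (ratios) at 95%. A gene counted as higher or lower at 2-fold or more among genes at 10 CPM in at least 1 library. Cells of at least 8000 UMIs (612 cells of the RUNX1-labelled library and 413 control cells fell short) were thinned to 8000 and phased in scanpy 1.11.5 over both libraries, and state sums used their full UMIs. Positions come from GENCODE v44lift37 by Ensembl identifier.

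The text names the 10 ETS genes, RUNX1, PDGFRB, neighbours within 50 kb of SPIB, genes overlapping an ETS gene, up to 4 genes of largest ratio per list and the 10 genes most like SPIB per state. Further genes named beside them were chosen after their values were seen, as were the comparisons by SPIB UMIs per cell. The members and lists were chosen with earlier results of these data known. Ratios and thinning were tested on simulated data. Settings varied in turn were the filter on cells, the scaling, the CPM floor of genes, the call of state and the thinning depth, with TMM from edgeR 4.0.16 in R 4.3.3. Other steps ran in Python 3.11.15 (pandas 2.3.3, scipy 1.17.1, numpy 2.4.6).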

Additional observations from a re-analysis of the deposited data

Results flagged for a closer look

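SPI1 went opposite ways with cycling state in the 2 libraries. The log2 ratio of non-cycling over cycling cells was -0.33 (-0.49 to -0.18) in the RUNX1-labelled library and 0.44 (0.13 to 0.73) in the control library, where it rested on 100 UMIs of non-cycling cells. With 1 library per group, the difference was not tested.

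Mouse UMIs, which no comparison used, made up a median of 1.02% of the UMIs of a barcode in the RUNX1-labelled library and 1.92% in the control library, and 0 barcodes reached the limit of 500 mouse UMIs.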

How the results depend on the processing

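SPIB stayed more than 2-fold higher in the RUNX1-labelled library under every alternative run. Its log2 ratio over all cells was 6.10 with under 10% mitochondrial UMIs, 5.998 with a total without mitochondrial and ribosomal protein genes and 6.06 as a mean over cells, and moved by less than its counting interval with no cell filter, TMM factors or median of ratios. The genes at least 2-fold higher and lower numbered 697 and 291 with under 10% mitochondrial UMIs (70.5% higher), 326 and 504 with TMM factors, 918 and 177 with the total without mitochondrial and ribosomal protein genes, 663 and 519 as a mean over cells, and 1608 and 502 at a floor of 1 CPM (76.2% higher). With non-cycling cells set as the lowest 25% of all cells by share of cell cycle UMIs, the ratio of non-cycling over cycling cells for SPIB in the RUNX1-labelled library was 1.01. The share of cells with a SPIB UMI was 44.3% in the RUNX1-labelled library and 1.02% in the control library with cells thinned to 5000 UMIs, and 64.3% and 2.86% without thinning. Of 162 values of the other ETS genes under alternatives, 88 stayed within the counting interval of the value given and 74 left it. Among the 162, 36 were shares of cells with a UMI at another thinning depth, and all 36 left it, as such shares change with depth. The cause of the other shifts was not tested.

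No paired analysis was possible because each group of cells had 1 library, and for the same reason leaving out a library was not an option. Depth limits SPIB in non-cycling control cells, with 6 UMIs, and ETS1, which stayed under 10 CPM.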
